A study of Mus musculus with 84 samples.

Results

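The genes described here are 10 genes of glucose uptake and glycolysis, taken by symbol from the 18909 genes of the deposited count table: the glucose transporters Slc2a1 and Slc2a3, the hexokinases Hk1 and Hk2, the phosphofructokinase Pfkp, the enzymes Aldoa, Pgk1 and Eno1, the lactate dehydrogenase Ldha and the pyruvate dehydrogenase kinase Pdk1. All 10 were found, and all 10 passed the filter on low counts in every comparison except that of ESCs with MEFs, in which Eno1 did not. They were followed by STRT RNA-seq, a method that sequences the 5′ ends of transcripts, while fibroblasts were reprogrammed towards pluripotency.

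There were 10 groups with 3 biological replicates each. MEFs were wild-type 129 mouse embryonic fibroblasts, kept without doxycycline in medium with FGF2 and heparin and without LIF, and were not sorted. ESCs were TNG-MKOS embryonic stem cells of the same strain label, which carry the Nanog-GFP reporter at Nanog and the MKOS-ires-mOrange cassette (c-Myc, Klf4, Oct4 and Sox2 under doxycycline control), grown in medium with LIF and without doxycycline. The reprogramming cells were transgenic MEFs with that same reporter and cassette, obtained from chimeric embryos of both sexes and grown among an excess of wild-type MEFs, with doxycycline at 300 ng/ml and vitamin C in the medium used for ESCs. They had been infected with a retroviral vector for a blue fluorescent protein (Cont) or for Smad3CA (+Sm3CA), a SMAD3 made constitutively active, and were collected at days 3, 6, 8 and 10 by sorting for mOrange. All transgenic cells go back to one engineered ESC line. Differences between a reprogramming group and MEFs combine the factors, the retroviral infection, the medium, the sort and the origin of the cells, and these cannot be told apart. Those between a reprogramming group and ESCs combine the state of the cells with doxycycline and the induced factors, vitamin C and the infection. These cannot be told apart either.

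Glycolysis turns glucose into pyruvate in the cytosol. GLUT1 and GLUT3, the products of Slc2a1 and Slc2a3, carry glucose into the cell, hexokinases trap it as glucose 6-phosphate, and lactate dehydrogenase and the pyruvate dehydrogenase kinases decide between lactate and the mitochondrion as the fate of the pyruvate. Pluripotent cells are known for a high glycolytic rate, several of the genes are known targets of the hypoxia-inducible factors (HIF) and of MYC, and a shift towards glycolysis is a known step of reprogramming.

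The libraries held 1008596 to 2296059 reads, with a median of 1602511, after the wells of a replicate were summed. Values below are normalized counts (reads divided by DESeq2's size factor of the library), and differences are log2 fold changes of edgeR's quasi-likelihood test on the counts, with its standard error (SE) and the Benjamini-Hochberg adjusted p over all genes tested. A gene was called when the adjusted p was under 0.05. Whether libraries overlapped is given as description only. The share of all genes without overlap is not given, so it is no evidence of a difference by itself. Reads are not molecules, so the precision covers the spread between libraries only, and 3 reads in a library stood for 2.59 to 3.33 normalized counts in MEFs. Fibroblast markers (8 genes in the table) summed to 4195.3 to 5773 normalized counts in MEFs and to 3.86 to 7.23 in ESCs, and pluripotency markers (8 genes) summed to 8.89 to 13.03 in MEFs and 28457 to 54027 in ESCs, so both labels had their markers. On day 10 the pluripotency sum was 467 to 1031 in Cont and 1093 to 2346 in +Sm3CA, and fibroblast markers summed to 1306 to 2629.9 and 1266 to 1615. Markers of macrophages and blood (4 genes) summed to 418 to 1778 in MEFs, 583 to 2509 in Cont and 822.5 to 1514 in +Sm3CA on day 10 and 12.86 to 34.32 in ESCs, nearly all of it from Lyz2, and their part in the results was not tested.

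Some libraries stood apart. Of the 3 Cont libraries of day 10, replicate 1 had the highest value of 8 of the 10 genes, and its Bnip3, a HIF target, was 233 normalized counts against 48.99 and 34.87 in the others. That library also had the lowest sums of fibroblast markers (1306 against 2559 and 2629.9) and of macrophage and blood markers (583 against 2509 and 2346) of its group, while its pluripotency sum (672) lay between those of the others (467 and 1031). ESC replicate 2 was the lowest ESC library for 6 of the 10 genes, and its Nanog was 21.68 normalized counts against 298.7 and 285 in the other ESC libraries and its Gapdh 370.3 against 14209 and 11889, while its sum of the 8 pluripotency markers was the highest of the ESC libraries (54027 against 31697 and 28457). Cont replicate 1 of day 8 and +Sm3CA replicate 1 of day 10 were high in the glial gene Mbp, with 1272.5 and 520.1 normalized counts against 19.53 to 184 in the other libraries of those groups. Where leaving out one of these libraries changed a call or moved a called fold by more than 1.5 times, the value without it stands beside the result. Cont replicate 1 of day 10 and ESC replicate 2 were picked out by values that include those of these 10 genes. Values without them are thus no independent support. Shares of all genes beside such counts are those with all libraries. Whether a gain or loss of calls without a library is particular to these genes was not tested.

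To show what lies upstream of genes that moved in different ways, sequences before the RefSeq transcription start of 5 of the genes are printed 5′ to 3′ on the strand of the gene (RefSeq, build GRCm38.p6). Capitals mark the letters ACGTG or their reverse complement CACGT, a form of the core of the hypoxia response element. Where both overlap they form CACGTG, the E-box that MYC is known to bind. Slc2a1 (chr4:119108495-119108713, plus strand) is shown up to its first annotated exon with the motif kept whole, Pdk1 (chr2:71872974-71873223, plus strand) and Pgk1 (chrX:106186850-106187099, plus strand) and Hk2 (chr6:82774455-82774704, minus strand) lie directly before the annotated gene, and the Ldha stretch (chr7:46845554-46845803, plus strand) lies before the first RefSeq start, in an intron of a longer GENCODE gene model.
Slc2a1: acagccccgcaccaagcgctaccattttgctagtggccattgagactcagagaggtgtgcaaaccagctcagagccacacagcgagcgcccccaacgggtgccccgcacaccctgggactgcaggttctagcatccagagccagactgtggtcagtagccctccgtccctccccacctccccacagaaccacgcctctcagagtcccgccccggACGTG
Pdk1: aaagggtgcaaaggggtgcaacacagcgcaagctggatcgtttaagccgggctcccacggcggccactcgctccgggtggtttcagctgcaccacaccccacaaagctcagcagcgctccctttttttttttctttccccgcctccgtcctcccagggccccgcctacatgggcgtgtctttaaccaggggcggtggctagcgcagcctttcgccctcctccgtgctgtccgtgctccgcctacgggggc
Pgk1: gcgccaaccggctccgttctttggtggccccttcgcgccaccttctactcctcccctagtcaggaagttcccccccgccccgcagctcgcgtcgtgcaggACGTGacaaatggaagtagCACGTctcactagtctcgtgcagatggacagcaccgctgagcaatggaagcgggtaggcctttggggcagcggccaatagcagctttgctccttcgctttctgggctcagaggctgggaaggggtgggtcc
Ldha: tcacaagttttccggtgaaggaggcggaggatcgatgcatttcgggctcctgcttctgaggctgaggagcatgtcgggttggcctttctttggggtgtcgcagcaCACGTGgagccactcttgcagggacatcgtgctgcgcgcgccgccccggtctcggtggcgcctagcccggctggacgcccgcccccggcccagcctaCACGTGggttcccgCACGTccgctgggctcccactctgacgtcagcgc
Hk2: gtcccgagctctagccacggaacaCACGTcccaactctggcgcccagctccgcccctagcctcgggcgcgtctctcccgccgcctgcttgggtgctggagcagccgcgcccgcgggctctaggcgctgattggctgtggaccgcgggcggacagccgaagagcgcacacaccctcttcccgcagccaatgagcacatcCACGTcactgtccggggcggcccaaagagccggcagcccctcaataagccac
The motif in capitals stood once before Slc2a1, at 2 sites before Pgk1 and Hk2, at 3 sites before Ldha of which 2 were CACGTG, and not in the 250 bases before Pdk1. Other forms of the core, such as the GCGTG in the Pdk1 stretch, were not counted. The 9 genes with an entry had 16 windows of 250 bases, 1 for each start, of which 6 (37.5%) held the motif, in 5 genes (the fifth was Aldoa, at its inner starts). The 2 Aldoa windows among them overlap and hold the same site, so windows are not independent. Of the 32851 windows over all genes, 16.6% held the motif. CACGTG was in 6.0% of those windows. Slc2a3 was not in the table. A match is a string of letters only, and no binding was measured here.

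From MEFs to Cont cells on day 3, the transporters went in opposite directions, and so did the hexokinases. Slc2a3, Hk2, Pfkp and Ldha were higher and Slc2a1, Hk1, Aldoa and Pgk1 were lower, which made 4 genes higher and 4 lower of 10 tested, where 22.6% and 20.9% of all 10979 genes were called higher and lower. In +Sm3CA cells on day 3 the counts were 4 higher and 3 lower, beside 22.4% and 20.7% of all genes, without Hk1 among those called. Both comparisons share the MEF libraries. The median log2 fold change of the 10 genes in Cont was -0.14, beside 0.00 over all genes tested.

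Slc2a1 (chromosome 4, 119108711 to 119137983, plus strand, GENCODE M21 on GRCm38 as for all positions below) encodes GLUT1, the transporter of most cultured fibroblasts. Its normalized counts were 92.21, 73.81 and 89.02 in MEFs and 18.72, 19.46 and 20.32 in Cont on day 3. The 6 libraries did not overlap, and Slc2a1 fell (log2 fold change -1.998, SE 0.38, adjusted p = 4.01e-05). Its values stayed low on day 6, at 18.00, 12.45 and 14.93 in Cont and 20.52, 42.69 and 16.20 in +Sm3CA. On day 8 they were 54.34, 37.99 and 53.69 in Cont and 51.91, 85.17 and 66.19 in +Sm3CA. The groups overlapped on both days, and all 6 values of day 8 were above all 6 of day 3, which were 16.12, 17.62 and 20.87 in +Sm3CA.

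By day 10 Slc2a1 was at 284, 81.25 and 81.04 normalized counts in Cont and at 304, 333 and 264 in +Sm3CA, and it was 294, 177 and 404 in ESCs. It rose from day 3 to day 10 by 2.90 on the log2 scale in Cont (SE 0.36, adjusted p = 6.87e-08, and 2.01 with adjusted p = 1.9e-06 without Cont replicate 1 of day 10) and by 4.06 in +Sm3CA (SE 0.35, adjusted p = 2.39e-11). Slc2a1 thus fell before it rose. From the lowest to the highest mean the order was Cont on day 6, +Sm3CA and Cont on day 3, +Sm3CA on day 6, Cont and +Sm3CA on day 8, MEFs, Cont on day 10, ESCs and +Sm3CA on day 10. The libraries of every pair of neighbours in that order overlapped. ESCs and +Sm3CA on day 10 differed by -0.06 (SE 0.30, adjusted p = 0.897), which was less than the spread of the ESC libraries.

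Slc2a3 (chromosome 6, 122727809 to 122801640, minus strand) encodes GLUT3, a transporter of high affinity found in neurons and pluripotent cells. It had 5.55, 8.68 and 3.46 normalized counts in MEFs, 26.74, 20.75 and 32.51 in Cont on day 3 and 669, 753 and 706 in ESCs. These 3 groups did not overlap. Slc2a3 rose on the way to day 3 (2.34, SE 0.37, adjusted p = 1.79e-06 in Cont and 2.48, SE 0.36, adjusted p = 4e-07 in +Sm3CA), and it was 120.5-fold higher in ESCs than in MEFs (log2 fold change 6.91, SE 0.42, adjusted p = 4.43e-09).

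The intermediate days lay between these ends. Cont libraries had 33.23, 27.77 and 27.23 normalized counts on day 6 and 50.95, 30.60 and 43.55 on day 8, and +Sm3CA libraries had 35.06, 34.15 and 29.69 and then 39.55, 71.07 and 45.21. On day 10 they had 140.7, 108.7 and 89.52 in Cont and 133, 145 and 167 in +Sm3CA. Every library of day 10 was above every library of the earlier days and below every ESC library. The rise from day 3 to day 10 was 2.03 in Cont (SE 0.26, adjusted p = 9.94e-08) and 2.30 in +Sm3CA (SE 0.25, adjusted p = 4.04e-09), and ESCs were higher than Cont on day 10 by 2.65 (SE 0.23, adjusted p = 3.08e-13) and than +Sm3CA by 2.23 (SE 0.22, adjusted p = 3.74e-11). Within each library, the log2 ratio of Slc2a3 to Slc2a1 reads went from a mean of -3.94 ± 0.81 (SD, n = 3) in MEFs to 0.43 ± 0.30 in Cont on day 3 and 1.36 ± 0.66 in ESCs, and no library of MEFs overlapped with the other groups named. On day 10 it was -0.15 ± 0.76 in Cont and -1.02 ± 0.31 in +Sm3CA.

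**Figure D1:**
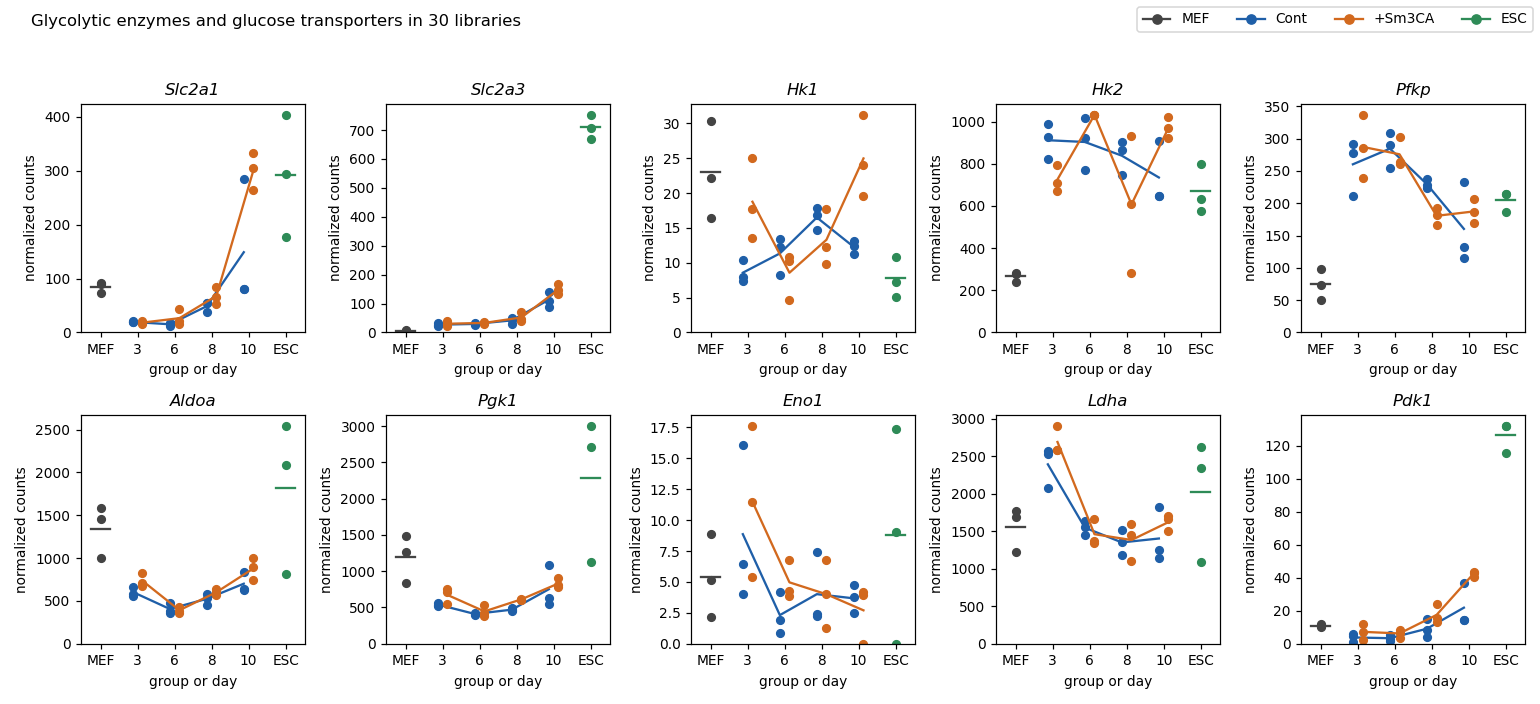
Normalized counts of the 10 genes (linear axes from 0, one panel per gene) in MEFs, in Cont and +Sm3CA on days 3, 6, 8 and 10, and in ESCs. Points are libraries (3 per group), coloured lines and short bars pass through group means. Slc2a1 lies at 12.45 to 42.69 on days 3 and 6 and at 264 to 333 in +Sm3CA on day 10, and Slc2a3 at 3.46 to 8.68 in MEFs and 669 to 753 in ESCs.

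The hexokinases split by isoform. Hk2 (chromosome 6, 82725025 to 82774454, minus strand), the inducible hexokinase of proliferating cells, had 239, 279 and 281 normalized counts in MEFs against 821, 987 and 927 in Cont on day 3 and 796, 671 and 709 in +Sm3CA. It rose in both (1.89, SE 0.25, adjusted p = 5.03e-08 and 1.56, SE 0.25, adjusted p = 2.16e-06) with no overlap. Its values in Cont were 771 to 1018 on day 6, 746 to 905 on day 8 and 648 to 909 on day 10. The change of Hk2 from day 3 to day 10 was not called in Cont (-0.32, SE 0.23, adjusted p = 0.311) or +Sm3CA (0.43, SE 0.23, adjusted p = 0.144), but in +Sm3CA it was with library totals alone or 1 well per library (adjusted p = 0.0432 and 0.0286). ESCs were lower than +Sm3CA on day 10 by a difference that was not called (-0.55, SE 0.24, adjusted p = 0.0582) but was in 4 alternatives, which were library totals alone, no filter, 1 well per library and leaving out ESC replicate 1 (adjusted p = 0.000516, 0.0383, 0.00731 and 0.0273). Hk2 in ESCs and in Cont on day 10 differed by -0.12 (SE 0.24, adjusted p = 0.69), and by -0.54 with library totals alone (adjusted p = 0.0381). ESCs, with 798, 574 and 634, were 1.34 above MEFs (SE 0.30, adjusted p = 0.00125).

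Hk1 (chromosome 10, 62268855 to 62379908, minus strand), the constitutive hexokinase, had 22.22, 30.39 and 16.42 normalized counts in MEFs. It had 8.02, 10.38 and 7.32 in Cont on day 3 and 17.66, 25.04 and 13.56 in +Sm3CA, which overlapped with MEFs. The fall from MEFs was called in Cont (-1.31, SE 0.41, adjusted p = 0.00901, and 0.0792 with 1 well per library) and not in +Sm3CA (-0.17, SE 0.37, adjusted p = 0.749). Between +Sm3CA and Cont of day 3 the difference was 1.14 (SE 0.40, adjusted p = 0.817), which was not called. ESCs had 7.31, 10.84 and 5.14, from 4 to 8 reads a library, and were below MEFs (-1.57, SE 0.54, adjusted p = 0.0229), a call that was lost without either MEF replicate 1 or 2, without ESC replicate 1 or 3 (adjusted p = 0.0617, 0.116, 0.0711 and 0.0918) and with the DESeq2 Wald test (adjusted p = 0.0516).

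Pfkp (chromosome 13, 6579768 to 6648777, minus strand), the platelet-type subunit of phosphofructokinase, which commits sugar to glycolysis, behaved like Hk2 at first. Its normalized counts were 98.88, 73.81 and 50.13 in MEFs, 278, 292 and 211 in Cont on day 3 and 337, 286 and 239 in +Sm3CA. It rose in both (1.93, SE 0.23, adjusted p = 4.6e-09 and 2.08, SE 0.23, adjusted p = 7.7e-10). It then declined to 232, 133 and 116 in Cont on day 10 and 206, 169 and 186 in +Sm3CA, and the falls from day 3 were -0.71 (SE 0.19, adjusted p = 0.0053) and -0.62 (SE 0.19, adjusted p = 0.0118). The first was lost without Cont replicate 3 of day 10 (adjusted p = 0.0591), and the second without +Sm3CA replicate 1 of day 3 or replicate 2 of day 10 (adjusted p = 0.0698 and 0.0581). ESCs had 186, 215 and 215, above MEFs by 1.48 (SE 0.32, adjusted p = 0.000973).

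Aldoa and Pgk1, which split fructose 1,6-bisphosphate and make ATP in the lower part of the pathway, followed one course down and up. Aldoa (chromosome 7, 126795234 to 126800751, minus strand, with a second GENCODE gene of the same symbol directly upstream) had 1579.8, 1451 and 1004 normalized counts in MEFs and 587, 665 and 562 in Cont on day 3. Pgk1 (chromosome X, 106187100 to 106203699, plus strand) had 1483, 1261 and 831 in MEFs and 537, 568 and 518 in Cont on day 3. Both fell without overlap, Aldoa by 1.03 (SE 0.25, adjusted p = 0.00075) and Pgk1 by 1.02 (SE 0.26, adjusted p = 0.00118).

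In +Sm3CA on day 3 Aldoa had 670.1, 827 and 708 normalized counts and Pgk1 544, 761 and 714, and both were below MEFs there too (-0.75, SE 0.25, adjusted p = 0.0118 for Aldoa and -0.71, SE 0.25, adjusted p = 0.0211 for Pgk1). The Pgk1 call was lost without MEF replicate 1 or +Sm3CA replicate 1 (adjusted p = 0.0954 and 0.0901). Both genes had their lowest group means on day 6, with 357 to 475 for Aldoa and 385 to 533 for Pgk1 over the 6 libraries. On day 10 Aldoa was at 842, 625 and 637 in Cont and 897, 998 and 742 in +Sm3CA, and Pgk1 at 1081.5, 548 and 624 in Cont and 788, 805 and 899.8 in +Sm3CA. The changes from day 3 to day 10 were not called for either (0.20 and 0.27 for Aldoa, 0.46 and 0.31 for Pgk1, in Cont and +Sm3CA). The change of Pgk1 in Cont was called without Cont replicate 2 or 3 of day 10 (0.62 and 0.56, adjusted p = 0.018 and 0.0457), and without replicate 1 it was 0.08 (adjusted p = 0.797).

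ESCs were uneven in these 2 genes, with 2090.1, 811 and 2543.5 normalized counts of Aldoa and 2706, 1129 and 3001 of Pgk1. Replicate 2 was the low one in both. Even so Pgk1 did not overlap with Cont or +Sm3CA of day 10, and it was higher in ESCs by 1.62 (SE 0.26, adjusted p = 1.36e-06) and 1.44 (SE 0.26, adjusted p = 1.16e-05). Aldoa was higher by 1.39 (SE 0.25, adjusted p = 1.13e-05) and 1.03 (SE 0.25, adjusted p = 0.000684), with overlap. Against MEFs Aldoa differed by 0.46 (SE 0.39, adjusted p = 0.34) and Pgk1 by 0.96 (SE 0.38, adjusted p = 0.0447), and the latter was not called without any one MEF library or without ESC replicate 1 or 3 (adjusted p = 0.0725 to 0.185). Nor was it called with DESeq2's size factors, library totals alone or 1 well per library (adjusted p = 0.0576, 0.0679 and 0.0685). The Pgk1 call was lost in 9 of 13 alternatives.

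Ldha (chromosome 7, 46841475 to 46855627, plus strand), which turns pyruvate into lactate, was highest on day 3 among MEFs and reprogramming cells. Normalized counts were 1766, 1690 and 1222 in MEFs, 2529, 2576 and 2074 in Cont on day 3, and 2584.5, 2905 and 2583 in +Sm3CA. It rose by 0.74 in Cont (SE 0.24, adjusted p = 0.0106) and 0.90 in +Sm3CA (SE 0.24, adjusted p = 0.00203), the former not called without MEF replicate 3 or Cont replicate 1 (adjusted p = 0.0676 and 0.0516). All 18 libraries of days 6, 8 and 10 were below all 6 of day 3, with 1098 to 1823. The fall from day 3 to day 10 was called in Cont (-0.78, SE 0.18, adjusted p = 0.00114) and in +Sm3CA (-0.72, SE 0.18, adjusted p = 0.00181). ESCs had 2341, 1087 and 2628, with a difference from MEFs of 0.39 (SE 0.36, adjusted p = 0.374). Of the 30-base stretches in the first 100 bases of annotated Ldha transcripts, 8.1% also occur in transcripts of other genes, so part of its reads may be placed uncertainly.

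Pdk1 (chromosome 2, 71873224 to 71903858, plus strand), the kinase that shuts pyruvate dehydrogenase, had few reads in most groups. It had 10.00, 10.86 and 12.10 normalized counts in MEFs, 4.46, 1.30 and 5.69 in Cont on day 3 and 2.30, 12.06 and 7.30 in +Sm3CA. The difference of Cont on day 3 from MEFs was not called (-1.29, SE 0.56, adjusted p = 0.058) although the libraries did not overlap, and it was called with the DESeq2 Wald test (-1.43, adjusted p = 0.0307). It stood at 1.92 to 8.54 on day 6 and at 14.72, 4.22 and 8.35 in Cont and 15.45, 23.90 and 12.92 in +Sm3CA on day 8.

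On day 10 Pdk1 was at 37.04, 14.34 and 14.13 normalized counts in Cont and 40.66, 43.69 and 42.97 in +Sm3CA, and at 132, 132 and 116 in ESCs. Each group lay wholly above the one before it. The rise from day 3 was 2.35 in Cont (SE 0.56, adjusted p = 0.00151, and 1.73 with adjusted p = 0.0327 without Cont replicate 1 of day 10) and 2.58 in +Sm3CA (SE 0.49, adjusted p = 7.25e-05), and ESCs were higher than Cont on day 10 by 2.55 (SE 0.38, adjusted p = 3.77e-07, and 3.19 without that library), than +Sm3CA by 1.54 (SE 0.36, adjusted p = 0.000452) and than MEFs by 3.50 (SE 0.36, adjusted p = 8.89e-07).

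Eno1 (chromosome 4, 150236721 to 150248879, plus strand), the main enolase of most tissues, had 0 to 19 reads in all 30 libraries. Of its 355 stretches of 30 bases at the 5′ end, 71 are shared with a near-identical copy elsewhere in the genome, and how reads were divided between the copies is not given in the sources used here, so its level is uncertain. In +Sm3CA it had 7, 19 and 11 reads on day 3 and 3, 0 and 3 on day 10, a difference that passed the test (adjusted p = 0.038) but failed it in 7 of 13 alternatives, among them without +Sm3CA replicate 2 or 3 of day 3 (adjusted p = 0.178 and 0.0696), without replicate 2 or 3 of day 10 (adjusted p = 0.199 and 0.0574) and with the DESeq2 Wald test (adjusted p = 0.0708). In Cont it had 18, 5 and 5 reads on day 3 and 2, 4 and 4 on day 10 (adjusted p = 0.219), and ESCs had 19, 0 and 7.

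Over the course from day 3 to day 10, then, 3 of the 10 genes rose in Cont (Slc2a1, Slc2a3 and Pdk1) and 2 fell (Pfkp and Ldha), beside 13.6% of all 10237 genes tested that were called higher and 11.6% lower. In +Sm3CA the same 3 rose and 3 fell (Pfkp, Ldha and Eno1), beside 17.6% and 16.2%. Scaling by library totals alone, which raised the median of all genes in Cont from 0.09 to 0.31, gave 5 higher and 1 lower in Cont, with Aldoa (0.43, adjusted p = 0.0429) and Pgk1 (0.68, adjusted p = 0.00361) called and Pfkp not, and 4 higher and 2 lower in +Sm3CA. The difference between the 2 courses was tested as an interaction and was called for 0 of the 10 genes by edgeR, beside 1.01% of all genes, and for 0 with DESeq2. By edgeR 2 of the 10 had an unadjusted p under 0.05. The share of all genes under that cut is not given, so no difference is read from this count. Slc2a1 had an interaction of 1.16 (SE 0.52, adjusted p = 0.352). It was called in 1 of 20 alternatives, the fit without Cont replicate 1 of day 10 (2.04, adjusted p = 0.00288). That library was the highest in Slc2a1 of its group, so leaving it out enlarges the difference.

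Compared with ESCs, Cont on day 10 was lower in 5 of the 10 genes (Slc2a1, Slc2a3, Aldoa, Pgk1 and Pdk1) and higher in none, where 21.5% of 10979 genes were called higher in ESCs and 30.3% lower. +Sm3CA on day 10 was lower than ESCs in 4 (Slc2a3, Aldoa, Pgk1 and Pdk1) and higher in Hk1 (ESCs lower by -1.74, SE 0.44, adjusted p = 0.00122), beside 18.6% and 27.2%. The ESC libraries are shared by the 2 comparisons. With library totals alone the counts were 4 higher and 2 lower against Cont and 4 and 2 against +Sm3CA, and the median of all genes moved from -0.15 to -0.57 and from -0.15 to -0.52. Without ESC replicate 2, 7 genes were called against Cont and 7 against +Sm3CA, in both with Ldha (0.89 and 0.63, adjusted p = 0.000365 and 0.0114) and Eno1 as the genes gained. Without Cont replicate 1 of day 10, 7 were called against Cont, with Pfkp (0.77, adjusted p = 0.00606) and Ldha (0.82, adjusted p = 0.00924) gained. Over the alternatives, 3485 to 6075 of all genes were called against Cont (5689 with all libraries) and 3004 to 5263 against +Sm3CA (5028 with all libraries).

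Slc2a1 was higher in ESCs than in Cont on day 10 by 0.99 (SE 0.31, adjusted p = 0.00675), with overlap because of Cont replicate 1. The call was lost without ESC replicate 3 or without Cont replicate 2 or 3 (0.74, 0.72 and 0.71, adjusted p = 0.0629, 0.0685 and 0.0733), with library totals alone and in a fit of those 6 libraries only, and without Cont replicate 1 it was 1.91 (adjusted p = 9.66e-07).

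Between the 2 ends of the course, ESCs and MEFs, 6 of 9 genes tested were higher in ESCs (Slc2a1, Slc2a3, Hk2, Pfkp, Pgk1 and Pdk1) and Hk1 was lower, where 23.5% of 8798 genes were called higher and 28.8% lower. Of these calls, that of Pgk1 was lost in 9 of 13 alternatives and that of Hk1 in 6 of 12. Slc2a1 was higher by 1.79 (SE 0.34, adjusted p = 0.000373). The median over the 9 genes was 1.34, beside -0.07 over all genes. The count was 9 (8 higher and 1 lower) without ESC replicate 2, with Aldoa at 0.86 (adjusted p = 0.00388) and Ldha at 0.75 (adjusted p = 0.0133), and 5 without ESC replicate 1 or 3 or without MEF replicate 1 or 2. Of all genes, 4597 were called in the main fit and 2658 to 6542 over the alternatives.

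**Figure D2:**
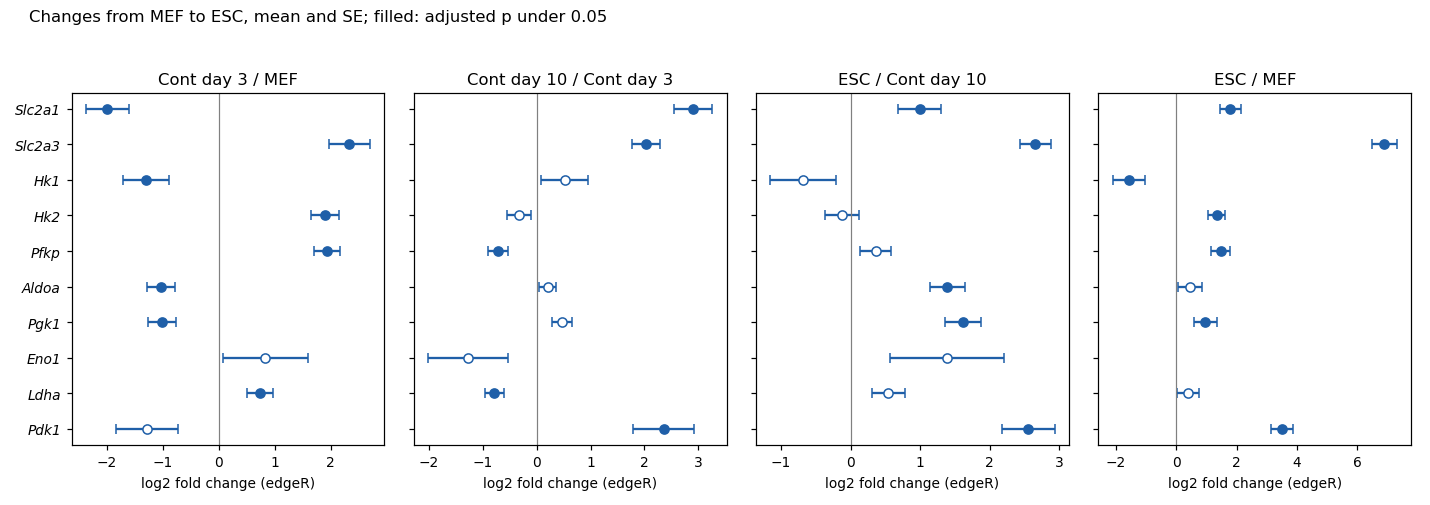
Log2 fold changes (x axis, with its own range in each panel) of the 10 genes in 4 comparisons along the way from MEFs to ESCs, with error bars of 1 SE from edgeR. Filled points had an adjusted p under 0.05, open points did not, and Eno1 was not tested in ESCs against MEFs. Slc2a1, Aldoa and Pgk1 are below 0 from MEFs to day 3 (-1.998, -1.03 and -1.02) and above 0 from day 10 to ESCs (0.99, 1.39 and 1.62).

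The study's question was what Smad3CA adds to the course set by the reprogramming factors. On days 3, 6 and 8 none of the 10 genes was called between +Sm3CA and Cont by edgeR or by the DESeq2 Wald test, beside 0.0195%, 0.00977% and 1.04% of all 10237 genes by edgeR. Of the 10 genes, 1, 1 and 2 had an unadjusted p under 0.05. The share of all genes under that cut is not given, so no difference is read from these counts. On day 10, 1 of 10 was called, Slc2a1, beside 3.58%. The sizes on days 3 to 8 ranged from -0.45 (Hk2 on day 8, SE 0.22, adjusted p = 0.338) to 1.14 (Hk1 on day 3), and Eno1 and Pdk1, with few reads, had the largest standard errors (0.48 to 0.81).

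On day 8 the libraries of +Sm3CA were uneven in Hk2, with 609, 281 and 932 normalized counts against 905, 864 and 746 in Cont. Replicate 2 was near the level of MEFs. Without +Sm3CA replicate 3 Hk2 was called lower (-0.90, adjusted p = 0.0121). On day 6, in contrast, the 3 +Sm3CA libraries had 1033, 1032 and 1029.7, with a difference from Cont of 0.20 (SE 0.22) that was not called. Pgk1 on day 8 was 608, 620.1 and 609 in +Sm3CA and 448, 465 and 496 in Cont, a difference that was not called (0.39, SE 0.18, adjusted p = 0.293). That of Pfkp, with 193, 166 and 182 against 228, 237 and 223, was not called either (-0.33, SE 0.19, adjusted p = 0.418).

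**Figure D3:**
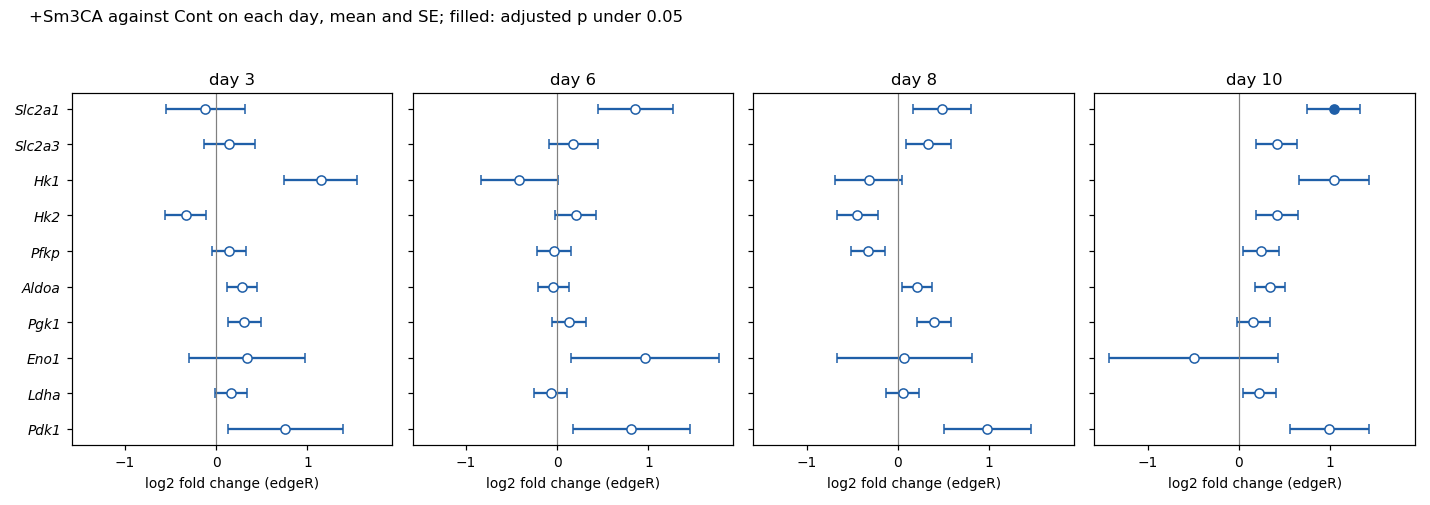
Log2 fold changes of the 10 genes in +Sm3CA against Cont on days 3, 6, 8 and 10 (shared x axis, error bars of 1 SE from edgeR, filled where the adjusted p was under 0.05). Slc2a1 on day 10 at 1.04 is the one filled point, and 9 of the 10 genes lie above 0 on that day.

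On day 10 Slc2a1 was 2.06-fold higher in +Sm3CA (log2 fold change 1.04, SE 0.29, adjusted p = 0.0313). The groups overlapped, since the 284 of Cont replicate 1 lay within the 264 to 333 of +Sm3CA while the other Cont libraries were near 81. Without that library the difference was 1.93 (adjusted p = 3.33e-06). It was not called without Cont replicate 2 or 3 (0.76 and 0.75, adjusted p = 0.236 and 0.24), without +Sm3CA replicate 1, 2 or 3 (1.05, 0.98 and 1.14, adjusted p = 0.0698, 0.119 and 0.0553), with all 30 libraries in the fit (adjusted p = 0.0639), without both libraries high in Mbp (adjusted p = 0.0746) or with the DESeq2 Wald test (adjusted p = 0.0876).

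Of the other 9 genes 8 had a difference above 0 on day 10, and none was called. Pdk1 differed by 0.99 (SE 0.43, adjusted p = 0.24), Hk1 by 1.04 (SE 0.39, adjusted p = 0.14, with 19.63, 24.03 and 31.25 normalized counts against 12.35, 13.14 and 11.31) and Hk2 by 0.42 (SE 0.23, adjusted p = 0.378, with 967, 922 and 1022 against 909, 648 and 648). Slc2a3 differed by 0.41 (SE 0.22, adjusted p = 0.377), Aldoa by 0.34, Pfkp by 0.24, Ldha by 0.22, Pgk1 by 0.16 and Eno1 by -0.50. The median over the 10 was 0.38, beside -0.01 over all genes. Summed pluripotency markers were higher in every +Sm3CA library than in every Cont library of that day, with 3 of 7 tested called higher. Of all genes 3.58% were called in either direction, which is also the share for the fibroblast markers. Of 8 fibroblast markers 4 were called lower (median -0.97), with sums of 1266 to 1615 in +Sm3CA, 1306 in Cont replicate 1 and 2559 and 2629.9 in the other Cont libraries. Macrophage and blood markers summed to 822.5 to 1514 in +Sm3CA, 583 in Cont replicate 1 and 2509 and 2346 in the others. The part of these cells in the differences was not tested. In bulk samples fewer cells of a kind and less RNA per cell cannot be told apart.

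**Figure D4:**
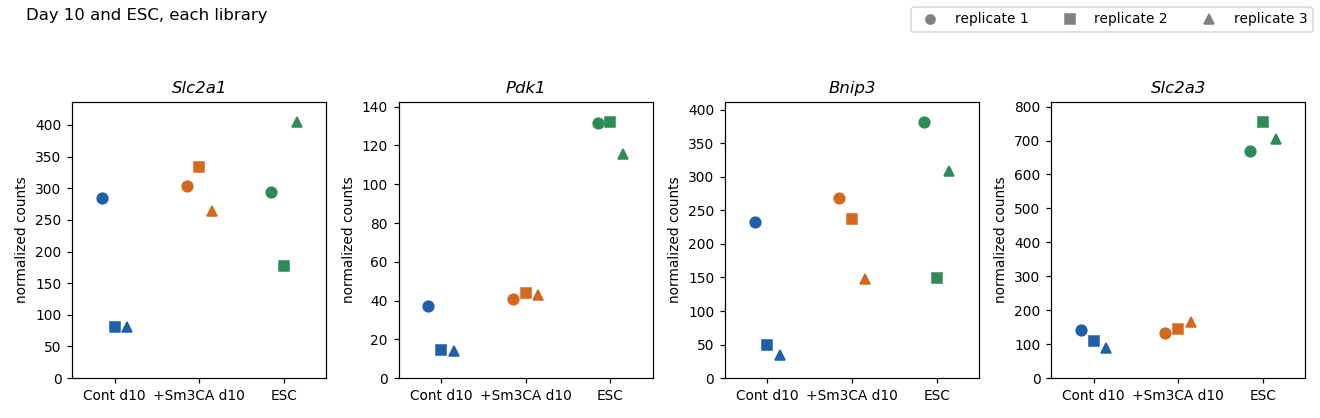
Normalized counts of Slc2a1, Pdk1, Bnip3 and Slc2a3 (linear axes from 0) in each Cont and +Sm3CA library of day 10 and in each ESC library, with marker shapes for replicates 1 to 3. Cont replicate 1 is at 284 for Slc2a1, 37.04 for Pdk1 and 233 for Bnip3, beside +Sm3CA values of 264 to 333, 40.66 to 43.69 and 148 to 268.

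The rest of the glycolytic enzymes were read from a list of 23 others, of which 13 passed the filter in the reprogramming libraries. The list also held Pgam5, a phosphatase rather than an enzyme of the pathway, and counts include it where it was tested. Between Cont on day 3 and MEFs 2 were higher and 4 lower of 13, beside the 22.6% and 20.9% of all genes. Ldhb, the subunit that favours pyruvate, fell most (-2.99, SE 0.36, adjusted p = 6.32e-09), followed by the isomerase Tpi1 (-1.55, SE 0.29, adjusted p = 2.44e-05), and Pkm, the pyruvate kinase, fell as well (-0.82, SE 0.23, adjusted p = 0.00329), while the phosphatase Pgam5 (1.26) and the muscle enolase Eno3 (0.96, SE 0.26, adjusted p = 0.00287) rose. Gapdh was at 0.20 (SE 0.51, adjusted p = 0.786).

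From day 3 to day 10, 1 rose and 4 fell in Cont (13.6% and 11.6% of all genes) and 2 rose and 5 fell in +Sm3CA (17.6% and 16.2%), and without Cont replicate 1 of day 10 none rose and 3 fell in Cont. Eno3 went from 269 to 17.24 normalized counts in Cont (-3.94, SE 0.32, adjusted p = 3.7e-12) and from 292 to 7.09 in +Sm3CA (-5.33, SE 0.38, adjusted p = 1.66e-13), and Gapdh from 7812 to 3038 (-1.37, SE 0.31, adjusted p = 0.00109) and from 8198 to 3186 (-1.36, SE 0.31, adjusted p = 0.000928). Of the Gapdh stretches at the 5′ end, 25.9% are shared with other annotated transcripts. In +Sm3CA Tpi1 rose (0.87, SE 0.24, adjusted p = 0.00465) and Pkm fell (-0.88, SE 0.18, adjusted p = 0.000206), while in Cont they changed by 0.32 and -0.47, which were not called (adjusted p = 0.347 and 0.0511). The difference between the series was not called for either gene (0.55 and -0.41, adjusted p = 0.555 and 0.548). Against Cont on day 10, 7 of the 13 were higher in ESCs and 1 lower (21.5% and 30.3% of all genes, 9 and 1 without Cont replicate 1, and 7 and 0 without ESC replicate 2), with Ldhb at 956 against 32.51 (4.89, SE 0.38, adjusted p = 2.67e-14), Pkm at 1735 against 462 (1.92, SE 0.23, adjusted p = 5.04e-09) and Tpi1 at 693 against 336 (1.06, SE 0.29, adjusted p = 0.00181). ESCs against MEFs had 3 of 12 higher and 2 lower (23.5% and 28.8% of all genes), and 5 and 2 without ESC replicate 2, with Gapdh (0.90, adjusted p = 0.00956) and Pkm (0.82, adjusted p = 0.00549) gained and Eno3 the lowest (-3.34, SE 0.36, adjusted p = 1.22e-06). No gene of this list was called between +Sm3CA and Cont on any day by edgeR with all libraries, but without Cont replicate 1 of day 10, 3 of 13 were called higher on that day, among them Tpi1 (1.02, SE 0.24, adjusted p = 0.00538, against 0.53 with it). Of all genes, 366 were called on that day with all libraries and 176 to 467 over the alternatives.

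Carriers of sugars and lactate other than Slc2a1 and Slc2a3 numbered 14, of which 5 or 6 were tested in fits with reprogramming cells. Slc16a1, the lactate carrier MCT1, rose from 20.56 in MEFs to 187 in Cont on day 3 (3.28, SE 0.28, adjusted p = 7.4e-13), and Slc2a6 rose as well (3.39, SE 0.55, adjusted p = 2.55e-06), while Bsg, the chaperone of the lactate carriers, fell (-0.84, SE 0.23, adjusted p = 0.00289), which made 2 higher and 1 lower of 6 (22.6% and 20.9% of all genes). Slc2a10 was at 0 reads in all ESC libraries and so at least 6.11-fold lower there than in Cont on day 10, with 3 reads per library as the floor. Of the 21 genes of flux control and pyruvate entry, 13 were tested, and 3 were higher and 3 lower in Cont on day 3 than in MEFs (22.6% and 20.9% of all genes). Among those lower were Pck2, which makes phosphoenolpyruvate in the mitochondrion (-3.12, SE 0.66, adjusted p = 0.000179), and Pdk3 (-1.67, SE 0.47, adjusted p = 0.00346). Among those higher were Fbp2, at 35.03 normalized counts and at least 11.44-fold above MEFs with the same floor, and Dld (0.85, SE 0.21, adjusted p = 0.00111), at 313 against 189. From day 3 to day 10 in Cont 0 of the 13 were called by edgeR, beside 13.6% of all genes called higher and 11.6% lower. In the pentose phosphate pathway, which branches off glucose 6-phosphate, 3 of 7 fell from day 3 to day 10 in Cont (11.6% of all genes, and 2 of 7 without Cont replicate 1 of day 10) and 4 of 7 in +Sm3CA (16.2%) and none rose, with Taldo1 going from 575 to 289.5 normalized counts in Cont (adjusted p = 0.000157) and from 621 to 263 in +Sm3CA (adjusted p = 6.65e-06).

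The regulators of the pathway and their other known targets were read in the same way. Of 19 tested genes of the list of HIF and its known targets, 2 were higher and 5 lower in Cont on day 3 than in MEFs, beside 22.6% and 20.9% of all genes. Among those lower were Bnip3 at -3.65 (SE 0.68, adjusted p = 2.58e-05) and Vegfa at -4.28 (SE 0.79, adjusted p = 2.29e-05). Vegfa was at a mean of 2.00 normalized counts in Cont on day 3, from few reads. Among those higher was Ndrg1, at 177 normalized counts against 44.35 in MEFs (2.13, SE 0.24, adjusted p = 1.05e-09). From day 3 to day 10, 7 rose and 1 fell in Cont (13.6% and 11.6% of all genes) and 7 rose and 1 fell in +Sm3CA (17.6% and 16.2%), and without Cont replicate 1 of day 10 the counts in Cont were 4 and 1. Bnip3 changed by 3.95 in Cont (SE 0.67, adjusted p = 2.44e-05), by 2.60 without that library (SE 0.64, adjusted p = 0.0026), and by 4.49 in +Sm3CA (SE 0.60, adjusted p = 3.42e-07). P4ha2 fell by -1.25 in Cont (SE 0.31, adjusted p = 0.00275) and by -1.55 in +Sm3CA (SE 0.32, adjusted p = 0.000255). Hif1a itself fell from 134 in MEFs to 33.40 in Cont on day 3 (-1.88, SE 0.31, adjusted p = 2.7e-06) and rose to 69.42 by day 10 (1.03, SE 0.31, adjusted p = 0.0117), while in +Sm3CA it was 45.39 on day 3 and 48.24 on day 10 (0.10, SE 0.31, adjusted p = 0.835). The difference between the 2 courses of Hif1a was not called (-0.93, SE 0.44, adjusted p = 0.382). The list did not move one way towards ESCs, where 2 were higher and 8 lower than in Cont on day 10 (21.5% and 30.3% of all genes, 3 and 7 without Cont replicate 1, and 1 and 8 without ESC replicate 2), and Adm was at 0 reads in ESCs, at least 6.02-fold below Cont on day 10. Between +Sm3CA and Cont on day 10 none of the 19 was called with all libraries (3.58% of all genes), with Bnip3 at 1.07 (SE 0.47, adjusted p = 0.236), and 4 were called higher without Cont replicate 1, with Bnip3 at 2.42 (SE 0.48, adjusted p = 0.00123). Over the alternatives, 176 to 467 of all genes were called in that comparison (366 with all libraries).

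Myc, whose counts can include the MKOS cassette, was at 79.0 normalized counts in MEFs, 30.61 in Cont on day 3 and 50.22 in ESCs. It was the one gene of these lists that was called between +Sm3CA and Cont on day 8, with 4.33, 4.29 and 15.34 normalized counts against 21.51, 33.77 and 38.18 (-2.03, SE 0.37, adjusted p = 0.00287). On day 10 it was at 12.45 against 20.95 (-0.73, SE 0.41, adjusted p = 0.393). Txnip, an inhibitor of glucose uptake, fell from MEFs to Cont on day 3 (-2.17, SE 0.36, adjusted p = 4.1e-06) and rose from day 3 to day 10 in Cont (2.03, SE 0.34, adjusted p = 2.01e-05) and in +Sm3CA (1.91, SE 0.32, adjusted p = 1.25e-05).

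Likeness of profiles is given as Pearson's r of the 10 group means of log2(normalized count + 1), against all genes with a mean of at least 10 normalized counts, as a description without a test, since the points share libraries and depth. The gene most like Slc2a1 among 8627 was Bnip3 (r = 0.970), and the most like member was Pdk1 (r = 0.934). For Slc2a3 it was Mreg (r = 0.990), for Pdk1 Acp6 (r = 0.986), for Pfkp Lyar (r = 0.989), for Hk2 Esf1 (r = 0.953), for Pgk1 Rbbp4 (r = 0.980), for Aldoa Grhpr (r = 0.975), for Ldha Cct7 (r = 0.949), for Hk1 Ptpn12 (r = 0.895) and for Eno1 Nsf (r = 0.859). Among themselves Aldoa and Pgk1 were closest (r = 0.971), Hk2 was closest to Pfkp (r = 0.869), and Slc2a1 and Pfkp had r = -0.512.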

How the data were processed

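STRT RNA-seq had been made from MEFs, ESCs and reprogramming cells in 84 wells. The table the authors deposited holds raw counts of reads for each gene in each well, and the submitters' processing notes name Bowtie 0.12.9, DESeq2 1.6.3 and the mm10 build. How reads of similar genes were divided is not given in the sources used here. Wells of one replicate, of which there were 3 (2 on day 10), were added up here to 30 libraries of 1008596 to 2296059 reads, grouped by their labels.

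Counts were tested with edgeR 4.0.16 in R 4.3.3 (TMM, filterByExpr, quasi-likelihood test, Benjamini-Hochberg adjustment over all genes tested). The 24 reprogramming libraries, all 30 libraries, or MEFs with ESCs entered a fit. Normalized counts used size factors of DESeq2 1.42.0, and tables and figures pandas and matplotlib. The steps were tested on simulated data. The alternatives were other scalings, no filter, DESeq2's Wald test, other libraries in the fit, 1 well per library, the replicate block, and leaving out single libraries. Leaving out both libraries high in Mbp was chosen after seeing the data.

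The series' text pairs replicate numbers over days within Cont and within +Sm3CA. Correlations of the deviations of same-numbered libraries were -0.073 to 0.0654 within Cont and -0.0584 to 0.118 within +Sm3CA. The members and lists were chosen with earlier results of these data known. Named were all 10 members, Gapdh, Pkm, Tpi1, Hif1a and Myc, the gene nearest in profile to each member, and from each list at most the 2 called genes with the largest change per direction whose libraries did not overlap. Not every such gene was named, and some with few reads were left out.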

Additional observations from a re-analysis of the deposited data

How the results depend on the processing

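Of 1700 values of single genes under the alternatives, 1626 kept their direction and side of the threshold or were uncalled in both, 29 gained a call and 45 lost one, none of those called reversed, and 48 uncalled values changed sign. Counts of called genes stayed within 1.5 times the reported count in most comparisons, and the exceptions were between +Sm3CA and Cont. On day 10 the count of 1 became 0 with all 30 libraries in the fit, 0 without both libraries high in Mbp and Ttr and 0 with the DESeq2 Wald test, and ranged from 0 to 1 when single libraries were left out. On day 8 the count of 0 ranged from 0 to 1, and for the interaction from 0 to 1, with Hk2 and Slc2a1 as the genes called. The cause was not tested. With the replicate block the paired counts within Cont and within +Sm3CA were 5 and 6 as without it, the interaction count was 0, and the count of day 10 was 1. Nothing in the labels pairs the numbers across series, where correlations of same-numbered Cont and +Sm3CA libraries were -0.102 to 0.0755. For ESCs against MEFs the replicate block left 5 genes called, without Hk1 (adjusted p = 0.0605) and Pgk1 (adjusted p = 0.0836). Over all genes, the counts called between +Sm3CA and Cont ranged over the alternatives from 1 to 11 on day 3 (2 reported), 0 to 10 on day 6 (1 reported), 21 to 523 on day 8 (106 reported, both ends without 1 library of +Sm3CA, replicate 2 or 3) and 176 to 467 on day 10 (366 reported), and from 27 to 198 for the interaction (103 reported). With 1 well per library, where fewer genes were tested, Cont on day 3 against MEFs had 2876 (4770 reported) and +Sm3CA 2785 (4729), and the change to day 10 had 1622 (2587) in Cont and 2104 (3451) in +Sm3CA. ESCs against Cont and +Sm3CA of day 10 had 3485 (5689) and 3004 (5028) in fits of 6 libraries, and ESCs against MEFs 2658 (4597) with 1 well. Depth limits Hk1, Pdk1 and Eno1, which had few reads in many libraries.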
